A study of Mus musculus with 18 samples.

Results

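The genes described here are 10 genes of the meiotic chromosome axis, its cohesin and the synaptonemal complex, with 1 gene of meiotic entry among them. They were taken by symbol, as the genes Sycp1, Sycp2, Sycp3, Syce1, Syce2, Hormad1, Smc1b, Stag3, Rec8 and Stra8. Each of the 10 was represented by 1 probe set, so that 10 probe sets stood for 10 of the 18194 genes measured. In meiosis the sister chromatids of each chromosome are held as loops on a protein axis built on cohesin complexes that contain meiosis-specific subunits. The synaptonemal complex then joins the axes of homologous chromosomes along their length. Retinoic acid and BMP signals start this programme in germ cells, whereas embryonic stem cells (ESCs) divide by mitosis.

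RNA of male 129SV mouse ESCs was measured on 18 Affymetrix arrays, with 1 array per sample. The design asked how an inhibitor of phosphoinositide 3-kinase (PI3K), LY294002, acts on EBRTcH3 ESCs and on derivatives with extra c-Myc, and how loss of Max, the DNA-binding partner of Myc proteins, acts with and without extra p110 alpha, a catalytic subunit of PI3K. The agent is spelled LY4294002 in the design text and LY294002 in the sample labels. All values are log2 levels from robust multi-array averaging (RMA), a scale on which a difference of 1 is a 2-fold difference.

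The LY294002 samples of parental EBRTcH3 ESCs grown in serum with LIF comprised 1 sample at day 2 and 2 samples at day 5, with 2 untreated samples as their references. Parental ESCs in 2i medium, a serum-free culture with inhibitors of the MEK and GSK3 kinases, gave 1 sample with LY294002 at day 5 and 1 without. ESCs overexpressing c-Myc(wild) and ESCs overexpressing c-Myc(T58A), a mutant of a phosphorylation site of c-Myc, each gave 1 sample untreated, 1 at day 2 and 1 at day 5. Max-null ESCs gave 1 sample without doxycycline (Dox), 1 at day 4 of Dox and 1 at day 6. Max-null ESCs overexpressing p110 alpha gave 1 sample with Dox, on a day that the labels do not give, and 1 without. Dox is the treatment by which Max was ablated in both lines, so the arrays called untreated are those of cells from which Max had not been removed. The labels name no clone, promoter or vector, and the description of the untreated c-Myc(T58A) sample calls its treated partners N-Myc cells. They also do not say that samples came from separate cultures, so every p-value below measures the spread between these samples, which may be technical.

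The arrays did not all sit on one scale. Array medians were 5.03 to 5.05 for parental replicate 1 and 2i cells, 4 arrays in all, and 5.31 to 5.52 for the remaining 14, a grouping inferred here as separate RMA runs that no label states. The Max-null array at day 6 of Dox stood apart within the 14, with a standard deviation over probe sets of 2.36 against 2.48 to 2.57 on the remaining 13. All 10 of the ESC markers looked up, such as Pou5f1 and Nanog, were above the filter level of 4.64 on all 18 arrays, with mean levels of 11.3 to 12.2. Of 10 fibroblast markers, which would show feeder cells, 2 to 6 were above that level on an array. The probe set for Max read 6.33 in the p110 alpha line with Dox and 6.70 without it. In Max-null ESCs it read 7.09 untreated, 6.89 at day 4 and 7.18 at day 6, and in the EBRTcH3 arrays 8.17 to 8.71. Whether it lies in the removed part of the gene is not known from the files, so it is no check of the ablation. Pik3ca, which encodes p110 alpha, read 8.27 in the p110 alpha line with Dox and 8.82 without it, against 8.50 in untreated Max-null ESCs. The Myc probe set read 7.51 in untreated c-Myc(wild) ESCs and 6.99 in untreated c-Myc(T58A) ESCs, against 7.43 in untreated parental replicate 2. Extra Pik3ca or Myc was thus not plain on the arrays, and whether these probe sets read the introduced sequences is not known from the files, so neither checks the labels.

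Upstream sequence is shown first for 6 of the genes, because the motif CACGTG, the E-box that Myc-Max dimers are known to bind, bears on a design that removes Max. The sequences are the 250 bases before the annotated start of each gene from RefSeq on mouse build GRCm38.p6, all 10 genes having at least 1 entry, and are written 5′ to 3′ on the strand of the gene. Capitals mark any of 4 motifs searched on both strands, which are the E-box CACGTG, the E2F-type motif TCCCGC, the T-box motif TCACACCT and the sequence CNCCTCAG. On the opposite strand the E2F-type motif reads GCGGGA and the T-box motif AGGTGTGA. Sycp1, Sycp3, Hormad1 and Stag3 are shown as genes that rose with Dox in Max-null ESCs and hold an E-box, and Stra8 as a gene that rose and holds none of the 4 motifs. Sycp2, Syce1 and Smc1b, not shown, rose as well and hold no E-box. Whether the E-box goes with the change was not tested. Syce2 is shown as a gene that holds an E-box and had a fitted change of -0.54, a call that alternatives given below lose.
Sycp1, chr3:102936101-102936350, minus strand: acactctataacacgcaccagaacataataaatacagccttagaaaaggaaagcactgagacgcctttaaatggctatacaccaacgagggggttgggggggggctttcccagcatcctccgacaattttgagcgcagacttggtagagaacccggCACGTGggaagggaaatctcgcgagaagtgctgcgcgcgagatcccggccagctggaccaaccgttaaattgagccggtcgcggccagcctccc
Sycp3, chr10:88459337-88459586, plus strand: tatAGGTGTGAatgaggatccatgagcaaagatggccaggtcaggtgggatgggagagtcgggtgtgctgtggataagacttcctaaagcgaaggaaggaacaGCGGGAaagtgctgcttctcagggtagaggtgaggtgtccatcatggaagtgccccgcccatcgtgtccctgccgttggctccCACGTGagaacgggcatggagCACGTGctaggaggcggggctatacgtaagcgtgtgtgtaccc
Hormad1, chr3:95559427-95559676, plus strand: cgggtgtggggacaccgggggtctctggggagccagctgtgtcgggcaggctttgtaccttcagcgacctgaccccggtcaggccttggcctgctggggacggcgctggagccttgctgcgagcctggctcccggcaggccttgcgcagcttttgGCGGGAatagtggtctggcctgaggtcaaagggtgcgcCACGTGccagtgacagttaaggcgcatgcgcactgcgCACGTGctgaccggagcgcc
Stag3, chr5:138280259-138280508, plus strand: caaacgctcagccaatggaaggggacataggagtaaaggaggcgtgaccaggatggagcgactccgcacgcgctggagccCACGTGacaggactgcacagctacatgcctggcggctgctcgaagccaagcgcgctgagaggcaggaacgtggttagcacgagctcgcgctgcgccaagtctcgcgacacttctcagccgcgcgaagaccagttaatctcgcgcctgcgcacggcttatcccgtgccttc
Stra8, chr6:34920698-34920947, plus strand: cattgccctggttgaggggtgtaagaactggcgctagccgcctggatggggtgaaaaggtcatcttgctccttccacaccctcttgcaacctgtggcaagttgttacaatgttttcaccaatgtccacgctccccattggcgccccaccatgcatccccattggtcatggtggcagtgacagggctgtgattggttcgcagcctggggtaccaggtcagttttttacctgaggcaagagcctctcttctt
Syce2, chr8:84872008-84872257, plus strand: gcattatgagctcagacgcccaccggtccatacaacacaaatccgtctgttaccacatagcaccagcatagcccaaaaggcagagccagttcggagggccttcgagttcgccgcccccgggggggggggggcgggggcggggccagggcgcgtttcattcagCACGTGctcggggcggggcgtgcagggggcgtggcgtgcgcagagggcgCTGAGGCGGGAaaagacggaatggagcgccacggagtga
The E-box was found in 5 of the 10 genes, the 5 with capitals reading CACGTG above. With the base just before the start counted as -1, its first base lay at -94 in Sycp1, at -64 and -43 in Sycp3 and at -57 and -20 in Hormad1. In Stag3 it lay at -170, and in Syce2 at -88 from the second of 2 listed starts. Over the 300-base windows of all genes, which add 50 bases after the start, 7.15% of 32851 windows and 8.09% of 27025 genes held an E-box. The E2F-type motif was present in 7 of the 10 genes, against 20.0% of windows and 22.0% of genes. The T-box motif was found in Sycp3 alone among the 10, against 1.28% of windows. The sequence CNCCTCAG was found in Sycp1, after its start, and in Syce2, where it overlapped an E2F-type match, against 7.94% of windows. Sycp2, Syce1 and Stra8 held none of the 4. These windows were rich in G and C, from 54.7% to 69.3%, where the median of all windows was 52.7%. They held 10 to 33 CG dinucleotides, where the median of all windows was 7, and the E-box and the E2F-type motif both contain CG. The shares of all windows and genes were not matched for this, and a match describes letters only.

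The 10 genes differed in how far their RNA ranged across the arrays. The widest was Stra8, which encodes a regulator of meiotic entry induced by retinoic acid, with a lowest level of 5.36, a median of 6.58 and a highest level of 12.79 over the 18 arrays. Sycp1 had a lowest level of 3.35, a median of 4.70 and a highest level of 10.34. The narrowest were Rec8, with a lowest level of 4.95, a median of 5.74 and a highest level of 6.65, and Syce2, with a lowest level of 10.16, a median of 11.08 and a highest level of 11.96. Rec8, Stag3, Stra8, Syce1, Syce2 and Sycp3 were above the filter level on all 18 arrays, Smc1b on 17, Hormad1 on 16, Sycp2 on 14 and Sycp1 on 10. The plot of levels by array shows these spreads and where the Max-null arrays lie in them.

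**Figure D1:**
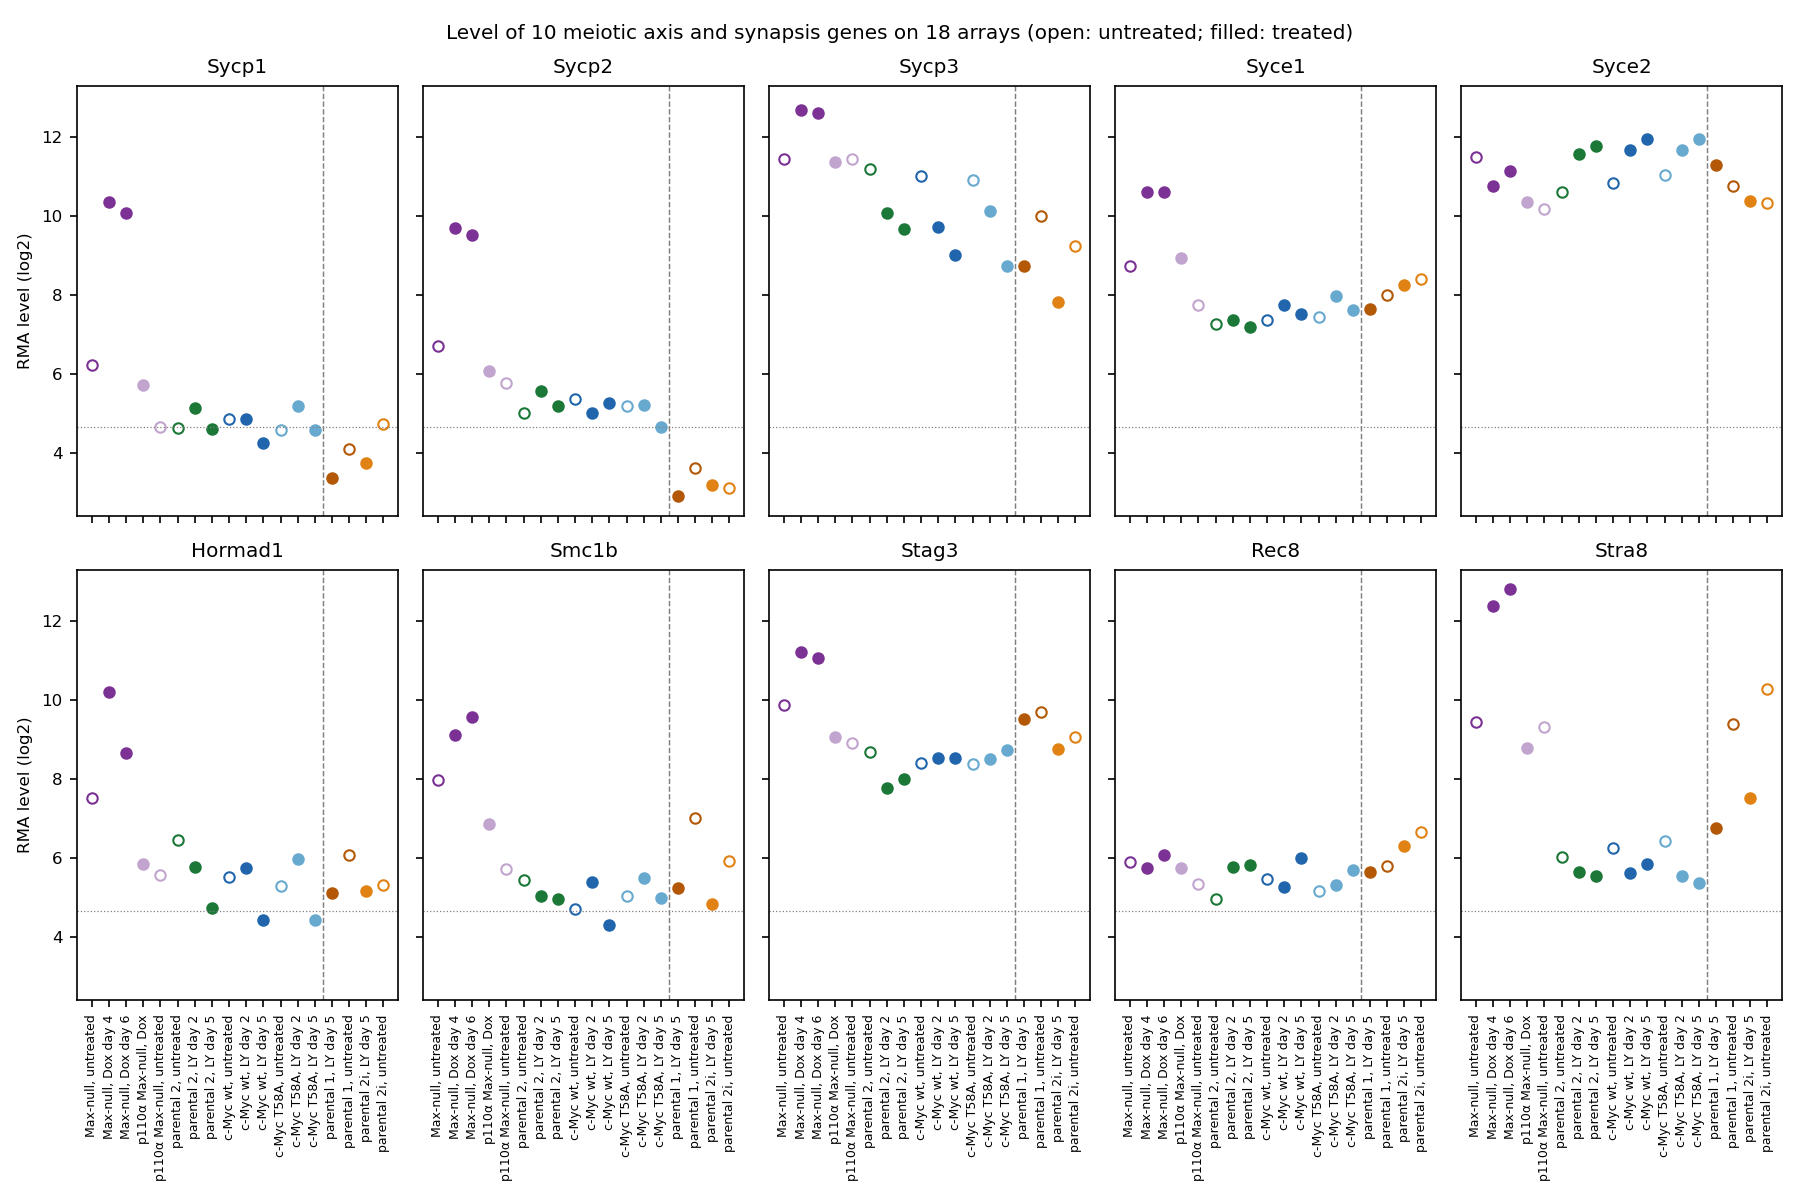
RMA log2 level of each of the 10 genes on the 18 arrays, 1 point per array, with the dotted line at the filter level of 4.64 and the dashed line setting apart the 4 arrays of the other inferred RMA run. The 2 Max-null arrays with Dox are the highest of the 14 arrays to the left of the dashed line for 8 genes, and Rec8 and Syce2 are the exceptions.

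Dox in Max-null ESCs went with higher RNA of 8 of the 10 genes. Sycp1, Stra8 and Sycp2 changed by the most, 7.44-fold to 15.7-fold, Syce2 fell by 0.54 on the log2 scale, and Rec8 did not pass the test. These changes were estimated with limma from 14 arrays with the cell line as a block and a Dox coefficient for each Max-null line, a split into lines that was added after the data had been seen. Over all 13903 genes tested, 40.4% passed at an adjusted p of 0.05, 14.3% as higher and 26.1% as lower. Both Dox days are set against the same untreated array, and the Max-null line adds to the residual spread only through the gap between its Dox days. The rest of that spread comes from EBRTcH3 lines with and without LY294002. The p-values thus take Max-null ESCs to vary as those lines do. Fewer cells of a type and less RNA per cell cannot be told apart in such bulk samples.

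Among the proteins of the axis and lateral elements, Sycp2 read 6.70 in untreated Max-null ESCs, 9.69 at day 4 of Dox and 9.50 at day 6. Its fitted change was 2.90 ± 0.27 (SE; 7.44-fold; adjusted p = 0.000164, limma). Sycp2 and Sycp3 are the proteins that coat the cohesin core as axial elements, and both Sycp2 arrays with Dox were above the other 12 arrays of the 14. Sycp3 read 11.45 untreated, 12.69 at day 4 and 12.60 at day 6, a fitted change of 1.20 ± 0.26 (SE; adjusted p = 0.00677, limma). Sycp3 thus stood well above the filter level before Dox. Hormad1, a HORMA-domain protein that binds the unsynapsed axis and leaves it upon synapsis, read 7.50 untreated, 10.21 at day 4 and 8.64 at day 6. The gap between its 2 Dox days, 1.56, was the widest of the 10 genes, and its fitted change of 1.92 ± 0.56 carried the largest error (SE; adjusted p = 0.024, limma). Hormad1 missed the threshold when the c-Myc(wild) line was left out (adjusted p = 0.0596, limma) or when the c-Myc(T58A) line was left out (adjusted p = 0.0532, limma). Both fits keep its change and have fewer degrees of freedom, and the cause of the lost call was not tested.

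Of the genes for the transverse filament and central element, which bridge the homologous axes, Sycp1 read 6.22 in untreated Max-null ESCs, 10.34 at day 4 and 10.06 at day 6. Its change of 3.97 ± 0.21 was the largest of the 10 (SE; 15.7-fold; adjusted p = 6.57e-06, limma). Sycp1 forms the transverse filament itself. Syce1, a central element protein, read 8.72 untreated, 10.59 at day 4 and 10.61 at day 6, a change of 1.88 ± 0.15 (SE; adjusted p = 6.59e-05, limma). Syce2, another central element protein, read 11.48 untreated, 10.76 at day 4 and 11.13 at day 6. It was the only 1 of the 10 that fell, by 0.54 on the log2 scale with an SE of 0.18 (adjusted p = 0.0382, limma). That call on Syce2 was lost without parental replicate 2 (adjusted p = 0.0747, limma), without the c-Myc(wild) line (adjusted p = 0.115, limma), without the c-Myc(T58A) line (adjusted p = 0.0768, limma), without the day 4 array (adjusted p = 0.0654, limma) and after quantile normalization (adjusted p = 0.19, limma). Without the line block its change read 0.12, of the opposite sign.

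The meiotic cohesin subunits did not move as 1 group. Smc1b, the meiotic counterpart of Smc1a, read 7.97 untreated, 9.11 at day 4 and 9.57 at day 6, a change of 1.37 ± 0.33 (SE; adjusted p = 0.0107, limma). Stag3, the meiotic counterpart of Stag1 and Stag2, read 9.86 untreated, 11.20 at day 4 and 11.06 at day 6, a change of 1.27 ± 0.31 (SE; adjusted p = 0.0115, limma). Rec8, the meiotic kleisin, read 5.89 untreated, 5.75 at day 4 and 6.07 at day 6, a change of 0.02 ± 0.27 whose sign turned when arrays were centred on their medians (SE; adjusted p = 0.955, limma). Smc1b and Stag3 were thus above all other 12 arrays with Dox while the Rec8 levels lay within their range at day 4. Stra8 read 9.43 untreated, 12.37 at day 4 and 12.79 at day 6. Its change was 3.15 ± 0.24 (SE; 8.88-fold; adjusted p = 4.72e-05, limma).

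The order of levels on the 14 arrays showed the same genes from another side. For 8 of the 10 both Max-null arrays with Dox were above the other 12 arrays, where this held for 14.2% of all genes tested. For 7 of those 8 the next highest array was the untreated Max-null one, and for Syce1 it was the p110 alpha line with Dox, at 8.94. Day 6 was above day 4 for 5 of the 10, and for 48.6% of all genes. The untreated Max-null array was itself above the 3 untreated EBRTcH3 serum arrays of these 14 for 10 of the 10, where this held for 36.7% of all genes. The difference from the highest of those 3 arrays was 3.02 for Stra8 and 2.54 for Smc1b, and between 0.27 and 1.38 for the other 8. This comparison of untreated arrays rests on 1 Max-null sample and was not tested. It also leaves out the untreated arrays of the other inferred RMA run, whose scale differs. On those, Stra8 read 9.39 in parental replicate 1 and 10.26 in 2i, against 9.43 in untreated Max-null ESCs. Smc1b read 7.00 and 5.92 there, against 7.97.

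Genes of other cell types were measured beside these changes. Of 7 markers of 2-cell-like cells 4 were measured, Usp17la, Tcstv1, Tcstv3 and Zfp352, and all 4 rose with Dox in Max-null ESCs with a median change of 6.59. Their mean level was 5.83 untreated, 12.0 at day 4 and 12.4 at day 6, against 3.47 to 3.66 on the 9 EBRTcH3 arrays of the 14. Of 10 germ line markers 9 were tested, and 5 rose and 2 fell, with a median change of 1.43. Dazl, Ddx4, Mael, Dppa3 and Tdrd9 were those that rose, with a change of 3.26 for Dazl and 2.20 for Ddx4. The 2 that fell were Prdm1 and Tfap2c. Prdm1 read 8.78 untreated, 7.87 at day 4 and 7.36 at day 6, and Tfap2c read 10.42, 9.52 and 8.91. Their list's mean level was 8.48 untreated, 9.75 at day 4 and 9.55 at day 6. Of 6 primitive endoderm markers 5 rose, with mean levels of 4.47 untreated, 5.30 at day 4 and 5.95 at day 6, and of 5 trophoblast markers tested 2 rose. Of 5 fibroblast markers tested 2 rose, and the mean level of all 10 was 4.39 untreated, 4.65 at day 4 and 4.99 at day 6. Of all genes tested, 14.3% rose and 26.1% fell. The part of these other genes in the changes of the meiotic genes was not tested.

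The design set Max ablation in the p110 alpha line against that in the Max-null line. With Dox the p110 alpha line had 1 of the 10 genes pass as higher, Syce1, and none as lower. Syce1 read 8.94 with Dox and 7.74 without it, a change of 1.20 ± 0.17 (SE; adjusted p = 0.04, limma). Over all genes tested 0.216% passed in this line, 0.201% as higher and 0.0144% as lower, and 1468 genes did so at an unadjusted p. The call on Syce1 was lost without parental replicate 2 (adjusted p = 0.107, limma), without the c-Myc(wild) line (adjusted p = 0.344, limma) and without the c-Myc(T58A) line (adjusted p = 0.214, limma), and the count was then 0. It was lost as well after median centring (adjusted p = 0.0519, limma), after quantile normalization (adjusted p = 0.0534, limma) and without the line block (adjusted p = 0.881, limma).

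The other 9 genes did not pass in the p110 alpha line. Sycp1 read 5.71 with Dox and 4.65 without it, a fitted change of 1.06 ± 0.25 (SE; adjusted p = 0.164, limma). Smc1b read 6.85 with Dox and 5.70 without it, a fitted change of 1.14 ± 0.38 (SE; adjusted p = 0.301, limma). With Syce1, these differences made 3 of the 10 genes at least 2-fold higher in the pair, where 1.55% of all genes were, but the line has a single pair of arrays, which the fit takes to vary as the other lines do. Stra8 read 8.78 with Dox and 9.31 without it, and its difference of -0.53 was the most negative of the 10. Sycp3 read 11.36 with Dox and 11.44 without it, Sycp2 6.07 and 5.77, Hormad1 5.84 and 5.57, and Stag3 9.05 and 8.91. Syce2 read 10.35 with Dox and 10.16 without it, and Rec8 5.73 and 5.34. Fitted changes of these last 6 genes lay between -0.09 and 0.39.

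**Figure D2:**
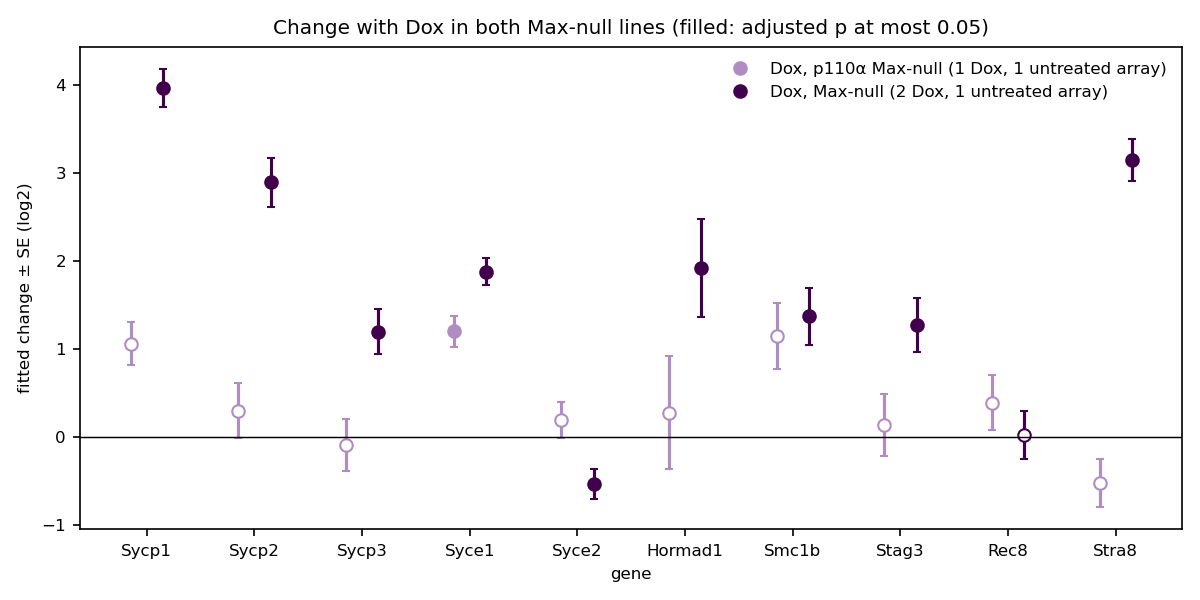
Fitted log2 change with Dox of the 10 genes in p110 alpha Max-null ESCs (1 Dox and 1 untreated array) and in Max-null ESCs (2 Dox arrays and 1 untreated array), with bars of 1 SE and filled points for adjusted p of at most 0.05. In the p110 alpha line the filled point is that of Syce1 at 1.20, while in Max-null ESCs 8 genes are filled above 0 and Syce2 is filled at -0.54.

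The difference between the lines was tested directly in the same 14 arrays. Of the 10 genes 4 had a smaller change with Dox in the p110 alpha line than in Max-null ESCs, and none a larger one. Of all genes tested 23.7% passed in this comparison, 17.4% as higher and 6.27% as lower. The difference, p110 alpha line minus Max-null, was -3.68 ± 0.36 for Stra8 (SE; adjusted p = 0.000665, limma). It was -2.91 ± 0.33 for Sycp1 (SE; adjusted p = 0.00115, limma) and -2.60 ± 0.42 for Sycp2 (SE; adjusted p = 0.00413, limma). For Sycp3 it was -1.28 ± 0.39 (SE; adjusted p = 0.044, limma), a call that was lost without the day 6 array (adjusted p = 0.0522, limma), without parental replicate 2 (adjusted p = 0.0509, limma), without the c-Myc(wild) line (adjusted p = 0.108, limma), with median centring (adjusted p = 0.0649, limma) and with no filter on low levels (adjusted p = 0.0511, limma). The differences of Hormad1 (-1.65, adjusted p = 0.19), Stag3 (-1.13, adjusted p = 0.112), Syce1 (-0.68, adjusted p = 0.062), Syce2 (0.73, adjusted p = 0.0814), Smc1b (-0.23, adjusted p = 0.764) and Rec8 (0.37, adjusted p = 0.54) did not pass in limma.

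Starting levels also differed between these lines. The untreated p110 alpha array was below the untreated Max-null array for 10 of the 10 genes, by 2.26 for Smc1b, 1.94 for Hormad1 and 1.57 for Sycp1, and by less than 0.01 for Sycp3, where 54.4% of all genes were below it. With Dox, the p110 alpha array was still below the untreated Max-null array for 9 of the 10, Syce1 being the exception by 0.22, where 47.9% of all genes were below it. The 2-cell-like markers averaged 6.81 in the p110 alpha line with Dox and 5.51 without it, and 1 of 4 passed. The germ line markers averaged 7.92 with Dox and 7.21 without it, and 2 of 9 passed. Whether line, day of Dox or p110 alpha goes with the difference cannot be told apart, since each line is 1 series of arrays and the day is not given for one of them.

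When both Max-null lines were fitted together, as 5 arrays with 1 Dox coefficient and 2 residual degrees of freedom, none of the 10 genes passed, and 4 did so unadjusted. In that fit 0% of 13534 genes passed in limma, the smallest adjusted p being 0.561, and 701 genes were below an unadjusted p of 0.05, 454 of them higher. The 10 genes had adjusted p-values of 0.8 to 0.866 there, with a median fitted change of 1.25 against -0.03 for all genes. Without the p110 alpha line, 1 untreated array remained, and the fitted changes of the 10 genes were those of Max-null ESCs alone, with a median of 1.63. More of the 10 genes then passed, but the share of all genes in that fit is not given here. The cause of that shift was not tested.

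LY294002 in serum was followed over time in parental replicate 2 and in both c-Myc lines. At day 2 Syce2 and Syce1 were higher and Sycp3 and Stra8 lower, and at day 5 Syce2 and Rec8 were higher and Sycp3, Hormad1 and Stra8 lower. In these 9 arrays 30.5% of all genes passed at day 2, 18.3% as higher and 12.3% as lower. At day 5 the share was 44.1%, with 25.7% higher and 18.5% lower. The counts of 4 and 5 of the 10 genes were thus close to the share over all genes. Both days share the untreated arrays of their lines.

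Sycp3 read 11.18 untreated, 10.06 at day 2 and 9.66 at day 5 in parental replicate 2. It read 11.01, 9.71 and 9.01 in c-Myc(wild) ESCs and 10.89, 10.13 and 8.74 in c-Myc(T58A) ESCs over the same days. Each line was lower at day 2 than untreated and lower again at day 5, and the untreated range of 10.89 to 11.18 did not overlap the treated range of 8.74 to 10.13. Sycp3 fell by 1.06 ± 0.17 at day 2 (SE; adjusted p = 0.00432, limma) and by 1.89 ± 0.17 at day 5 (SE; adjusted p = 0.000251, limma). The day 2 call was lost without the c-Myc(wild) line (adjusted p = 0.0641, limma).

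Syce2 moved the other way. It read 10.60 untreated, 11.56 at day 2 and 11.78 at day 5 in parental replicate 2, and 10.84, 11.67 and 11.94 in c-Myc(wild) ESCs. In c-Myc(T58A) ESCs it read 11.03, 11.66 and 11.96. The 3 untreated arrays were below all 6 treated arrays, and Syce2 rose by 0.81 ± 0.08 at day 2 (SE; adjusted p = 0.000808, limma) and by 1.07 ± 0.08 at day 5 (SE; adjusted p = 0.000151, limma).

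Hormad1 read 6.45 untreated, 5.76 at day 2 and 4.73 at day 5 in parental replicate 2. In c-Myc(wild) ESCs it read 5.51, 5.74 and 4.42, and in c-Myc(T58A) ESCs 5.28, 5.96 and 4.42. At day 5 both c-Myc arrays were under the filter level of 4.64 and all 3 arrays below the untreated ones, and it fell by 1.22 ± 0.22 (SE; adjusted p = 0.00357, limma). That call was lost in the 14-array fit with a shared Dox coefficient for both Max-null lines (adjusted p = 0.081, limma). At day 2 it was higher in both c-Myc lines and lower in the parental line (fitted change 0.08, adjusted p = 0.83, limma). Stra8 read 6.01 untreated, 5.63 at day 2 and 5.54 at day 5 in parental replicate 2. In c-Myc(wild) ESCs it read 6.24, 5.61 and 5.85, and in c-Myc(T58A) ESCs 6.41, 5.53 and 5.36. All 3 untreated arrays were above the 6 treated ones, and Stra8 fell by 0.63 ± 0.13 at day 2 (SE; adjusted p = 0.0117, limma) and by 0.64 ± 0.13 at day 5 (SE; adjusted p = 0.00709, limma). The day 2 call on Stra8 was lost without the c-Myc(wild) line (adjusted p = 0.0767, limma). Its day 5 call was lost in the 14-array fit with a shared Dox coefficient (adjusted p = 0.492, limma).

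Rec8 was called at day 5 and Syce1 at day 2. Rec8 read 4.95 untreated, 5.76 at day 2 and 5.82 at day 5 in parental replicate 2, 5.47, 5.25 and 6.00 in c-Myc(wild) ESCs, and 5.16, 5.30 and 5.69 in c-Myc(T58A) ESCs. It rose by 0.64 ± 0.17 at day 5 (SE; adjusted p = 0.018, limma), a call lost without the c-Myc(T58A) line (adjusted p = 0.0776, limma). Syce1 was higher at day 2 than untreated in each line, at 7.37 against 7.26 in parental replicate 2, 7.73 against 7.36 in c-Myc(wild) ESCs and 7.96 against 7.44 in c-Myc(T58A) ESCs. It rose by 0.33 ± 0.09 at day 2 (SE; adjusted p = 0.0278, limma) and had a fitted change of 0.09 at day 5 (adjusted p = 0.478, limma). That day 2 call was lost without the c-Myc(wild) line (adjusted p = 0.219, limma) and without the c-Myc(T58A) line (adjusted p = 0.148, limma). Without the c-Myc(wild) line 2 of the 10 genes passed at day 2, both higher, where 4 passed with it. The share of all genes in that smaller fit is not given here.

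The remaining genes did not pass at either day. Sycp1 lay between 4.24 and 5.17 on these 9 arrays, Sycp2 between 4.66 and 5.57 and Smc1b between 4.29 and 5.49, close to the filter level. Stag3 lay between 7.75 and 8.73. Beside these values, 5 of 9 germ line markers rose at day 2 and 1 fell, and 6 rose and 1 fell at day 5. The changes at day 5 were 3.51 for Dppa3 and -1.09 for Prdm1, the 1 that fell. The 2-cell-like markers averaged 3.47 to 3.50 at day 2 and 3.50 to 3.66 at day 5, against 3.55 to 3.64 untreated. Of 5 trophoblast markers tested, 3 rose and 1 fell at day 5. Of all genes tested, 18.3% rose and 12.3% fell at day 2, and 25.7% rose and 18.5% fell at day 5. The part of these markers in the changes above was not tested.

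Levels of several genes were different in parental replicate 1 and in 2i, whose 4 arrays belong to the other inferred RMA run. Stra8 read 6.74 with LY294002 at day 5 and 9.39 untreated in parental replicate 1, and 7.52 with LY294002 and 10.26 untreated in 2i. These differences of -2.65 and -2.74 compare with -0.47 at day 5 in parental replicate 2. Smc1b read 5.24 with LY294002 and 7.00 untreated in parental replicate 1, and 4.82 and 5.92 in 2i. Sycp3 read 8.72 with LY294002 and 9.99 untreated in parental replicate 1, and 7.82 and 9.23 in 2i. In parental replicate 1 these 3 of the 8 genes above the filter level were at least 2-fold lower with LY294002, where 3.09% of all genes were. In 2i 4 of 9 were, where 2.23% of all genes were, the further gene being Sycp1 at 3.73 with LY294002 and 4.74 untreated. Of the 10, Syce2 was the 1 gene above its untreated array in parental replicate 1, at 11.29 with LY294002 and 10.75 untreated, and it read 10.38 and 10.33 in 2i. Each is a single pair, so no test was made, and levels of these arrays are not on the scale of the other 14.

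**Figure D3:**
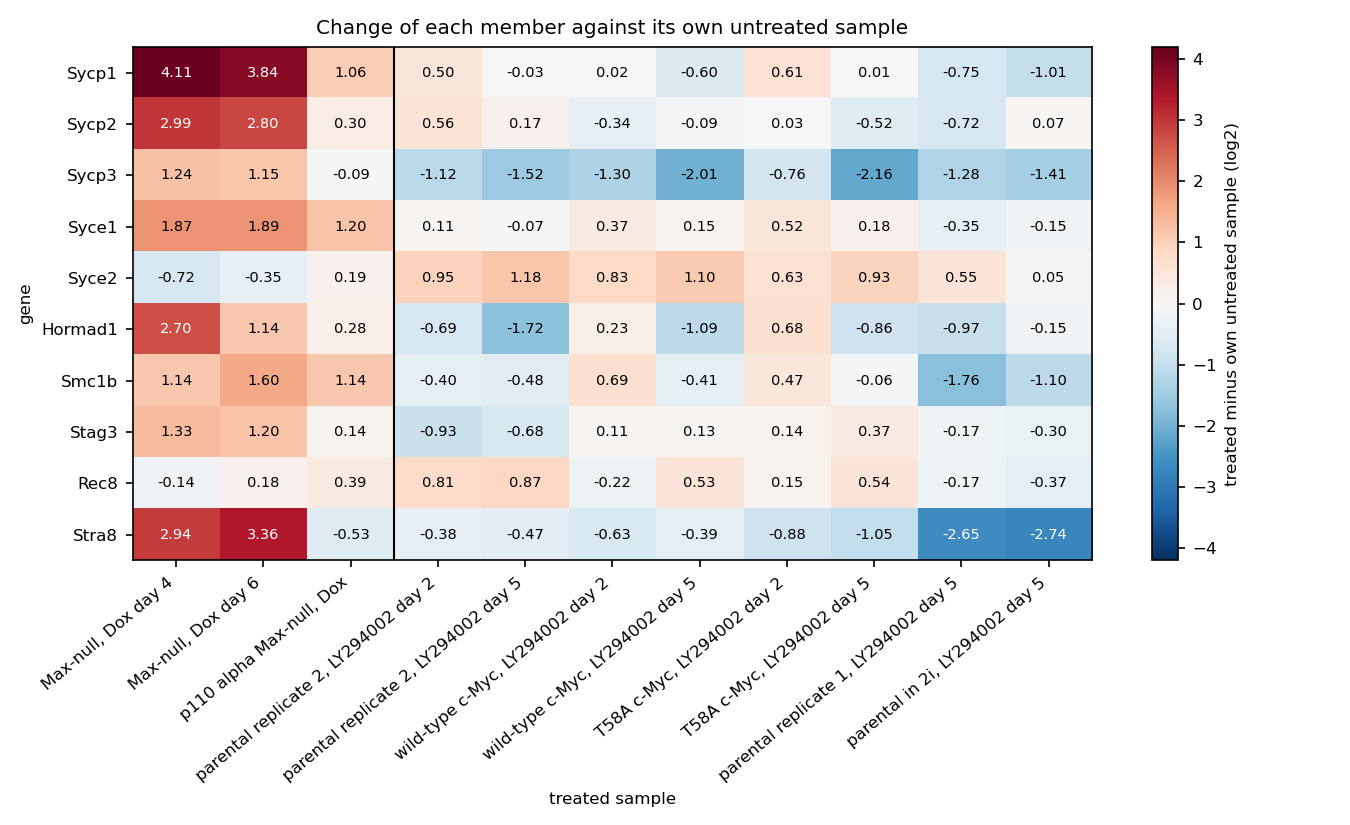
Difference in log2 level of each treated array from its own untreated array for the 10 genes, over 8 LY294002 pairs and 3 Dox pairs, with the colour scale in log2 units. The Max-null columns reach 4.11 for Sycp1 and 3.36 for Stra8, and the LY294002 columns reach -2.74 for Stra8 and -2.16 for Sycp3.

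Whether extra c-Myc altered the response at day 5 was asked in 8 serum arrays, with parental replicates 1 and 2 on one side and both c-Myc lines on the other. Sycp3 was the 1 gene of the 9 tested that passed in each. It fell by 2.08 ± 0.12 in the c-Myc lines (SE; adjusted p = 0.031, limma) and by 1.40 ± 0.12 in the parental pairs (SE; adjusted p = 0.0437, limma). Of all genes 2.62% passed in the c-Myc lines, 1.09% as higher and 1.53% as lower. In the parental pairs 0.53% passed, 0.112% as higher and 0.418% as lower. Both calls were lost without the pair block (adjusted p = 0.104 in the c-Myc lines and 0.342 in the parental pairs, limma). They were lost too without the c-Myc(wild) line (adjusted p = 0.541 and 0.187, limma) and without the c-Myc(T58A) line (adjusted p = 0.507 and 0.193, limma). With parental replicate 1 left out, the Sycp3 change in the parental pair that remained was -1.52, and with parental replicate 2 left out it was -1.28. More of the 9 genes then passed on both sides, but the shares given above are those of the full fit. The share of all genes in these smaller fits is not given here. For the difference between c-Myc and parental cells no gene of the 9 passed and 0% of all 13404 genes did. The smallest adjusted p was 0.996 in limma, and 457 genes were below an unadjusted p of 0.05. For Sycp3 that difference was -0.68 ± 0.17 (SE; adjusted p = 0.996, limma). Without parental replicate 2, which leaves parental cells with the 1 pair of the other inferred RMA run, the difference for Sycp3 was -0.80.

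Dox and LY294002 share no control array, so their changes could be compared in the 14 arrays. All Dox arrays there are of Max-null lines and all LY294002 arrays of EBRTcH3 ESCs or their c-Myc derivatives, and the days of treatment differ. Agent, cell line, starting level and day therefore cannot be told apart in this comparison. With both Max-null lines under 1 Dox coefficient, Dox gave a higher change than LY294002 at day 5 for 4 of the 10 genes and a lower one for Syce2, beside 2.68% higher and 4.01% lower, 6.69% in all, of the genes tested. Those 4 were Sycp1 (difference 2.93, adjusted p = 0.036), Sycp3 (2.54, adjusted p = 0.0125), Syce1 (1.50, adjusted p = 0.0122) and Smc1b (1.59, adjusted p = 0.0284), by limma. The count was 0 without parental replicate 2, without the c-Myc(wild) line or without the c-Myc(T58A) line, and 1 without the line block. It was higher without the p110 alpha line, which leaves 1 untreated Max-null array. The share of all genes in these altered fits is not given here, so the counts cannot be set against it. With the Dox coefficient of Max-null ESCs alone, a contrast added after the data had been seen, 8 were higher with Dox than with LY294002 and Syce2 was lower by 1.60, while 40.1% of all genes passed, 13.7% as higher and 26.4% as lower. In that contrast Stra8 differed by 3.79 ± 0.29 (SE; adjusted p = 6.19e-05, limma) and Sycp3 by 3.09 ± 0.31 (SE; adjusted p = 0.000199, limma). Sycp3, Stra8 and Hormad1 rose with Dox in Max-null ESCs and, in the 9-array fit, fell with LY294002 at day 5, while Syce2 fell with Dox and rose with LY294002. In the 14-array fit with a shared Dox coefficient, the falls of Stra8 and Hormad1 with LY294002 did not pass. Those falls were not tested on their own in the fit with a Dox coefficient for each line. Rec8 differed by -0.62 (adjusted p = 0.156, limma).

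**Figure D4:**
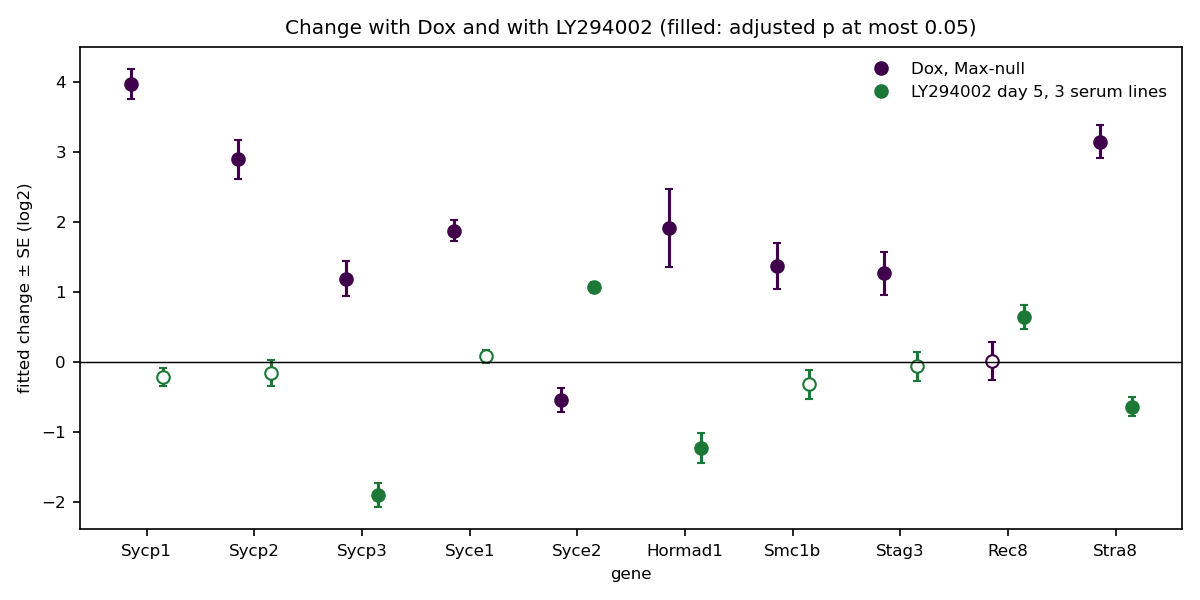
Fitted log2 change of the 10 genes with Dox in Max-null ESCs (14-array fit) and with LY294002 at day 5 in 3 serum lines (9-array fit), with bars of 1 SE and filled points for adjusted p of at most 0.05. Sycp3 is filled at 1.20 for Dox and -1.89 for LY294002, and Syce2 at -0.54 for Dox and 1.07 for LY294002.

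Over the 11 treated arrays, each taken as its difference from its untreated array, Sycp3 varied most closely with Sycp1 (Pearson r = 0.93), Syce1 (0.92) and Sycp2 (0.90) among the 10. It had r of 0.86 with Hormad1, 0.80 with Stra8, 0.72 with Smc1b, 0.71 with Stag3, -0.28 with Rec8 and -0.87 with Syce2. Among 14517 other genes the nearest were M6pr (0.982), Iars (0.974), Akap8l (0.973), Fam214a (0.972) and Etfdh (0.971). M6pr encodes a receptor that sorts lysosomal enzymes and Iars a tRNA synthetase for isoleucine. These values are a description over 11 differences that share untreated arrays and follow the contrast of Dox with LY294002. The differences of M6pr were small, from -0.27 to 0.29 on the log2 scale, while those of Akap8l reached 1.00 at day 4 of Dox and -0.80 with LY294002.

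A wider list of 46 meiosis genes outside the 10 gave a mixed picture. It held 34 measured genes, the other 12 being not analysed here. With Dox in Max-null ESCs 12 of 30 tested rose, 7 fell and 11 did not pass, where 14.3% of all genes rose and 26.1% fell. The median change was 0.15, against -0.09 for all genes and 1.63 for the 10. Tex15, a protein of male germ cells, read 7.40 untreated, 10.95 at day 4 and 10.98 at day 6, a change of 3.56 ± 0.28 (SE; adjusted p = 6.11e-05, limma). Syce3, a central element protein, read 6.93 untreated, 8.69 at day 4 and 8.95 at day 6. Tex11, needed for crossovers in male meiosis, read 6.79 untreated, 9.02 at day 4 and 8.38 at day 6. Tex12, a further central element protein, read 4.30 untreated, 5.23 at day 4 and 5.79 at day 6. All 4 passed, with changes of 1.90 for Syce3, 1.91 for Tex11 and 1.21 for Tex12. In the p110 alpha line 0 of 30 passed in limma, 13 being below an unadjusted p of 0.05, and Tex15 read 7.97 with Dox and 6.65 without it. The difference between the lines was -2.24 for Tex15 (adjusted p = 0.00819, limma).

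With LY294002, 5 of 25 tested genes of that list rose and 4 fell at day 2, and 8 rose and 7 fell at day 5. The medians were 0.08 and 0.04, against 0.04 and 0.05 for all genes. Of all genes tested, 18.3% rose and 12.3% fell at day 2, and 25.7% rose and 18.5% fell at day 5. Syce3 read 5.06 untreated, 6.41 at day 2 and 6.78 at day 5 in parental replicate 2. Its change was 1.31 ± 0.08 at day 2 and 1.69 ± 0.08 at day 5 (SE; adjusted p = 0.00038 and 5.91e-05, limma). Syce3 and Syce2 therefore both rose with LY294002, while with Dox in Max-null ESCs Syce3 rose and Syce2 fell. Mnd1, a partner of the meiotic recombinase, rose by 1.07 at day 2 and 1.02 at day 5 (adjusted p = 0.000411 and 0.000148, limma). Mnd1 fell by 2.14 with Dox in Max-null ESCs (adjusted p = 0.000177, limma). Rec114, which acts in the formation of meiotic double-strand breaks, rose by 0.74 at day 2 and 1.05 at day 5, and Brme1, a partner of Brca2 in meiosis, by 0.84 at day 5. Sun1, which ties telomeres to the nuclear envelope, fell by 0.72 at day 2.

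The subunits and regulators of mitotic cohesin, which include the counterparts of Smc1b, Stag3 and Rec8 in dividing cells, were 11 genes, all tested. With Dox in Max-null ESCs 1 rose, 4 fell and 6 did not pass, with a median change of -0.35, against -0.09 for all genes. Of all genes tested there, 14.3% rose and 26.1% fell. Stag2 fell by 1.41 and Smc1a by 0.86 (adjusted p = 0.00142 and 0.00606, limma), whereas Nipbl, the cohesin loader, rose by 0.61. Rad21, the mitotic kleisin, had a fitted change of -0.35 (adjusted p = 0.176, limma). With LY294002 at day 5, 1 rose, 4 fell and 6 did not pass, with a median of -0.12, against 0.05 for all genes. Of all genes tested at that day, 25.7% rose and 18.5% fell. The changes of the 3 lists stand side by side in the plot of lists.

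**Figure D5:**
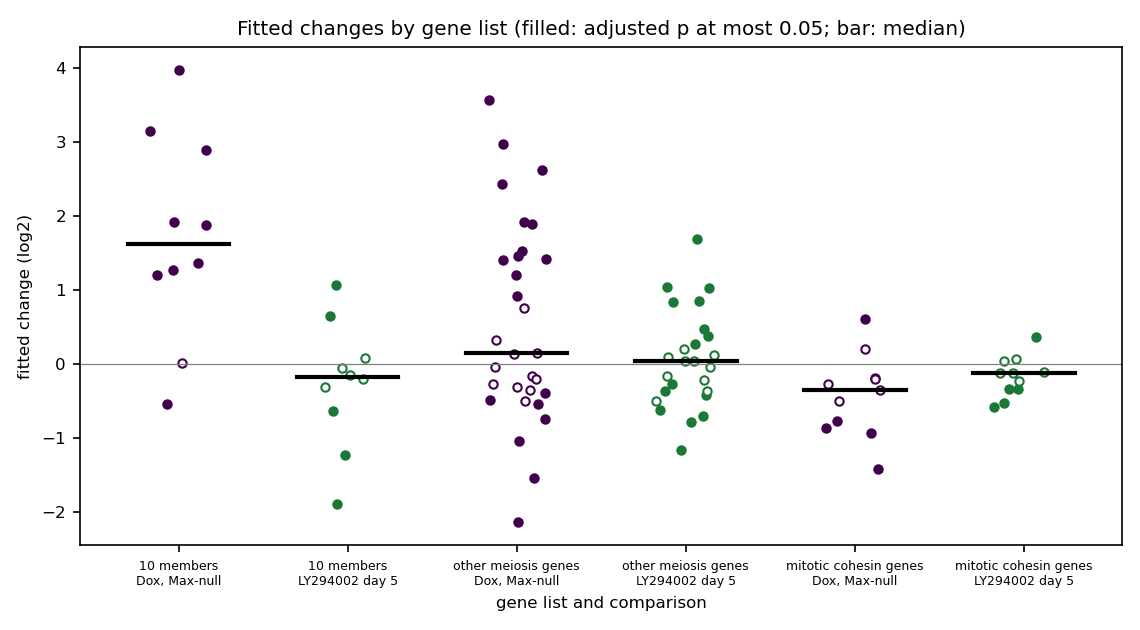
Fitted log2 change of each tested gene of the 10 genes, of the other meiosis genes and of the mitotic cohesin genes, with Dox in Max-null ESCs (14-array fit) and with LY294002 at day 5 (9-array fit), filled where the adjusted p was at most 0.05 and with a bar at each median. The medians with Dox are 1.63, 0.15 and -0.35, and those with LY294002 are -0.18, 0.04 and -0.12.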

How the data were processed

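Total RNA was hybridised as biotin-labelled cRNA to Affymetrix arrays, per the labels' protocols. The deposited log2 values of 45101 probe sets on 18 arrays were made by the authors through RMA in affy, per the submitters' processing notes, with versions and settings not given in the sources used here. Of these, 34945 probe sets named 1 gene. Each of 18194 genes was given its probe set with the highest mean, and a gene was tested where at least 2 arrays of the fit were above 4.64, the 40th percentile of the table. RMA pulls low levels together and limits their changes, and arrays of separate RMA runs are not on one scale. The number of arrays limits the precision, and no read count stands behind a value.

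Changes were tested under R 4.3.3 with limma's lmFit and eBayes (version 3.58.1; 2-sided, Benjamini-Hochberg over all genes of a fit, threshold 0.05). Each treated array was set against the reference that the descriptions name for it, and pair or line entered as a block. The fits held 8, 9, 5 or 14 arrays with 2, 4, 2, and 6 or 5 residual degrees of freedom. The pairing was checked: parental replicate 1 minus 2 when untreated correlated over 13404 genes with the same difference at day 5 at r = 0.563, offset between runs included. The same r for the c-Myc lines was 0.172. Single pairs were described by differences of at least 1 (2-fold). Named genes were the 10 genes, the 4 of the other meiosis list with the smallest p in the 5-array Dox fit, up to 4 that passed in each LY294002 fit, the 5 nearest to Sycp3, and Max, Myc and Pik3ca. Mnd1 with Dox, the cohesin genes and the markers named were chosen after their values were seen. The genes and lists were chosen with earlier results of these data known, so no count over them is independent evidence. Alternatives changed the filter, the scaling, the block, the samples and the arrays in the fit. The fits were tested on simulated data.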

Additional observations from a re-analysis of the deposited data

Results flagged for a closer look

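The change with Dox differed between the p110 alpha line and Max-null ESCs, by the test of the difference itself, for 4 genes. The difference, p110 alpha line minus Max-null, was -2.91 for Sycp1, -2.60 for Sycp2, -1.28 for Sycp3 and -3.68 for Stra8. Syce2 moved in opposite directions in the lines, with 0.19 in the p110 alpha line against -0.72 at day 4 and -0.35 at day 6 in Max-null ESCs, a difference that did not pass its test. Such opposite signs were seen for 3 of the 10 genes and for 47.8% of all genes. At day 5 of LY294002 every c-Myc pair moved one way and every parental pair the other for 2 genes, neither passing its test, and for 5.12% of all 13404 genes tested. The difference, c-Myc minus parental, was 0.38 for Syce1 and 0.68 for Stag3. No group held 4 or more samples, so no sample could be checked against its own group.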

How the results depend on the processing

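Of 532 comparisons of a single gene's change with an alternative, over genes that passed in either, 423 kept their direction and side of the threshold, 56 lost a call, 52 gained one and 1 changed sign, Syce2 with Dox in Max-null ESCs, at 0.12 with no line block. The count with Dox in Max-null ESCs was 9 as reported and 7 to 9 when arrays were left out. Counts of the 10 genes that moved by over 1.5 times were as follows. LY294002 at day 5 in 3 lines gave 5, and 3 with a filter at the 60th percentile (6.07) or in the 14-array fit with a shared Dox coefficient. At day 2 it gave 4, and 2 to 6 with a line left out. The parental pairs gave 1, and 0 with no block, and lost or gained calls with a pair left out. The c-Myc lines gave 1, and 0 with no block, and lost or gained calls with a pair left out. Their difference from parental gave 0, and gained calls without parental replicate 2, which leaves 1 parental pair. Dox in the p110 alpha line gave 1, 0 with median centring, quantile normalization or no block, and 0 to 1 with a line left out. The difference between the lines gave 4, 8 with no block, and 3 to 5 with an array or line left out. Dox against LY294002 gave 5, 1 with no block, and 0 to 9. Dox in both lines gave 0, 1 in the 14-array fit with a shared Dox coefficient, and more without the p110 alpha line, which leaves 1 untreated array. Leaving the Max-null line out of the 5-array fit could not be run, for want of residual degrees of freedom. The share of all genes that passed under each alternative is not given here, so these counts cannot be set against it. Whether arrays, fewer samples or the block caused each shift was not tested. Median centring moved the median change of all genes with Dox in Max-null ESCs by -0.11 and that of the difference between lines by 0.15. Under median centring or quantile normalization, of the 10 genes in these comparisons only Rec8 with Dox in Max-null ESCs and Sycp2 in c-Myc minus parental changed sign, neither of which had passed.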
